A study of Mus musculus with 5 samples.

Results

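The 17 autosomal megabases with 40 or more RAP1 peaks hold 775 of the 30398 listed peaks, and their reads stood 3.35-fold above the scaled Rap1-deleted reads (95% interval 3.21 to 3.50). Megabases were counted on a fixed grid of 1 Mb by the midpoint of each peak, and the 3 to 4 Mb stretch of chromosome 11 was left out by rule. Peak counts therefore chose these regions, and their density is a description. The 17 make up 0.716% of the 2375 autosomal megabases with a peak, which have a median of 11 peaks (interquartile range 6 to 17), and hold 2.59% of the 29940 autosomal peaks. They are named here by chromosome and start in Mb, so that 11-86 is chromosome 11 from 86 to 87 Mb of mm9.

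The series mapped RAP1 along the genome of mouse embryonic fibroblasts by chromatin immunoprecipitation and sequencing. All lines were immortalised with SV40 large T, an oncoprotein that disables p53 and the retinoblastoma protein, and were kept in puromycin. The strain background of the immunoprecipitated lines is labelled mixed. The 5 libraries are RAP1 precipitates from 2 independent wild-type lines, RAP1 precipitates from 2 independent Rap1-deleted lines as the negative control, and 1 input without antibody. The deposited list pools reads into a positive set, read here as wild-type, and a negative set, read here as Rap1-deleted. No value has a spread between replicates, and the depth of each library is unknown.

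RAP1 belongs to shelterin, the complex that coats telomeres, and reaches the telomeric repeats by binding TRF2. Mammalian RAP1 is not needed to cap telomeres in most settings, and it is also known at sites inside chromosomes, where it has been linked to gene regulation. Immunoprecipitated DNA is read from both ends of a fragment, so that a bound site gives forward reads on its left and reverse reads on its right. The list keeps no peak with fewer than 10 positive reads on either strand. The ratio used throughout is the positive reads over the negative reads in the forward and reverse windows of a peak, after multiplying negative reads by 3.32, the factor that the deposited folds contain. Its intervals cover counting error only. The peaks were called from the same 2 read sets, so no test was made on the ratios.

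The dense megabases lie on 9 of 19 autosomes. Chromosomes 10, 11 and 15 have 3 each, chromosomes 3 and 19 have 2 each, and chromosomes 6, 8, 17 and 18 have 1 each. Adjoining pairs are 10-79 with 10-80 and 19-4 with 19-5. The fullest is 19-5 with 66 peaks, then 3-95 with 57, 11-86 with 52, 11-106 with 50 and 17-35 with 49. The other 12 hold 40 to 45. Of the 34 flanking megabases, 29 lie above the upper quartile of 17 peaks, with a median of 25. Both counts include the dense partners of the adjoining pairs, and 30 of the 34 hold under 40 peaks. Of the flanking megabases, 4 hold 10 peaks or fewer. They are the megabases of 10 and 5 on either side of 6-17, the 4 before 10-79 and the 8 after 10-80. Within 2 Mb of the last listed peak lie 11-120 and 10-127, and within 2 Mb of the first lie 19-4 and 19-5.

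**Figure D1:**
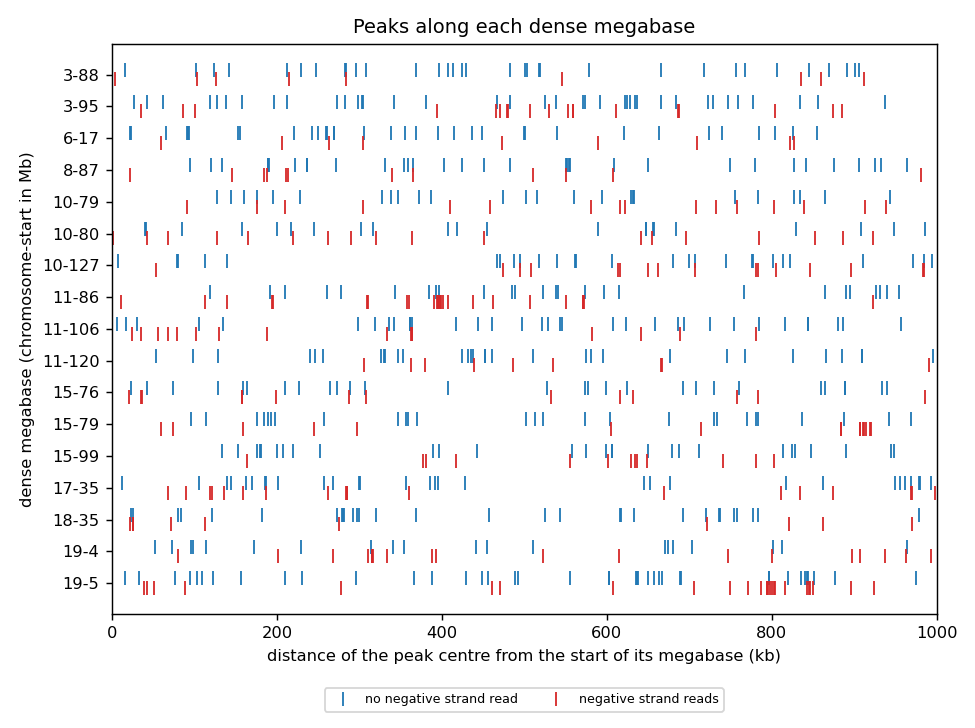
Centres of the 775 peaks along the 17 dense megabases, as the distance from the start of the megabase in kb (x axis), 1 row per megabase; ticks are coloured by whether the strand windows of the peak hold negative reads. Peaks spread over the whole megabase in most rows, with runs of neighbouring ticks such as the 12 peaks of 11-86 and an empty stretch of 328 kb in 10-127.

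In every dense megabase the peaks spread over most of its length. They spanned 816 to 987 kb, and in 12 of the 17 each of the 10 stretches of 100 kb held a peak. Many peaks alone fill more stretches, and other megabases were not compared, so this spread is read no further. The lowest number of occupied stretches was 8, in 10-127 and 17-35. Their longest empty stretches ran for 328 kb on chromosome 10 from 127138931 to 127467057 and for 217 kb on chromosome 17 from 35428138 to 35645421. The fullest single stretches of 100 kb were 5.8 to 5.9 Mb on chromosome 19 with 16 peaks, 86.3 to 86.4 Mb on chromosome 11 with 15, and 35.1 to 35.2 Mb on chromosome 17 with 12.

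Against the Rap1-deleted reads, the dense megabases sat low among autosomal megabases. Their ratios ran from 1.72 to 6.08 with a median of 3.61, and 16 of 17 lay under the 5.72 of the whole list. In 16 of 17 the whole interval lay above 2, as it did in 90.9% of all autosomal megabases with a peak. In 15 of 17 the whole interval lay under the ratio of the list, against 17.2% of all such megabases and 47 of the 90 megabases of 30 to 39 peaks (52.2%). None of the 17 intervals lay wholly above the ratio of the list, where 41.9% of all megabases and 12 of those 90 did. Negative strand reads stood in all 17, in all 90 and in 69.2% of all autosomal megabases. Megabases with few peaks have few reads and wide intervals. In 14 of the 17 the ratio of the forward windows was below that of the reverse windows, against 50.1% of the 1644 autosomal megabases with a negative strand read and 45 of the 90 of 30 to 39 peaks. In 7 of the 17 the forward and reverse intervals did not overlap, a share of 41.2% near the 36.4% over all those megabases. The peaks were called on this contrast, so these counts describe the regions and nothing further is read from them.

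**Figure D2:**
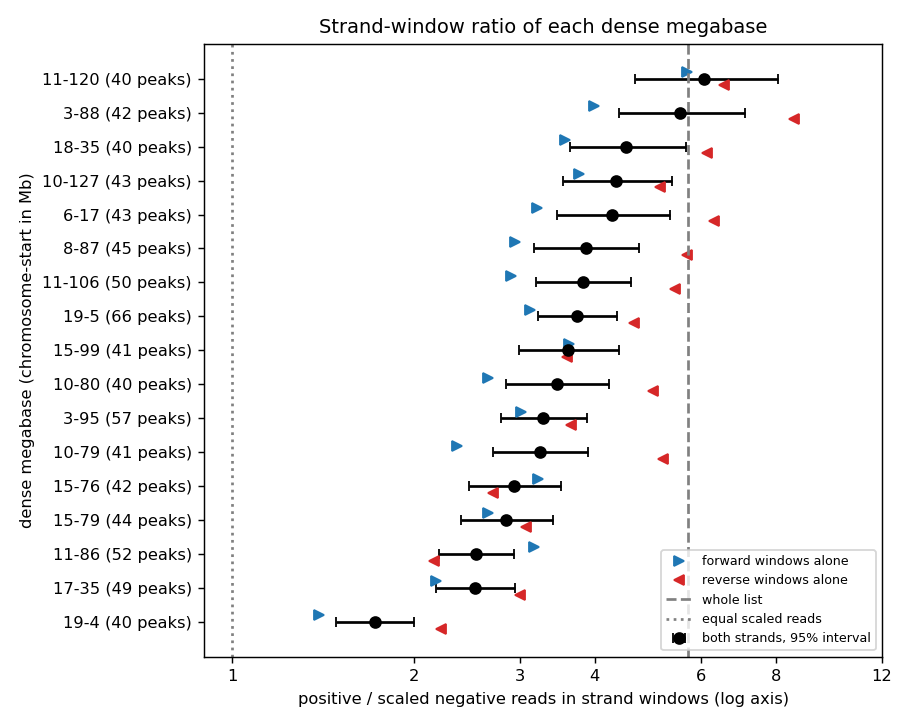
Positive over scaled negative strand-window reads (x axis, log scale) for each of the 17 dense megabases (y axis, with its peak count), sorted by ratio; black points are both strands with exact 95% intervals, triangles the forward or reverse windows alone. The megabase 19-4 is lowest at 1.72 and 11-120 highest at 6.08, and forward values lie left of reverse values in 14 rows.

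Ratios were lower the more peaks a megabase held. Summed over megabases of 1 to 9 peaks the ratio was 10.4 (10.1 to 10.7), over 10 to 19 peaks 6.71 (6.61 to 6.81), over 20 to 29 peaks 4.82 (4.74 to 4.89) and over 30 to 39 peaks 3.90 (3.81 to 3.99). The dense megabases, at 3.35, continue that order. Along it the mean positive strand reads per peak ran from 28.3 to 32.7 and the mean negative strand reads from 0.819 to 2.94. Where a peak had negative strand reads, its median was 7 in each of these classes, so the order follows the share of peaks with such reads. That share was 269 of 775 in the dense megabases (34.7%, 31.4 to 38.2), against 18.9% of all autosomal peaks and 27.9% in megabases of 30 to 39 peaks. All 17 dense megabases had a share above the autosomal value, from 20.9% in 6-17 to 50% in 11-86 and 19-4, and in 11 of them the whole interval did. Over all autosomal megabases with a peak, 35.8% had a share above that value and 2.86% a whole interval above it, and in megabases of 30 to 39 peaks 75 and 22 of 90 did. Intervals are wide where a megabase has few peaks. No control read stood in the strand windows of the other 506 peaks.

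**Figure D3:**
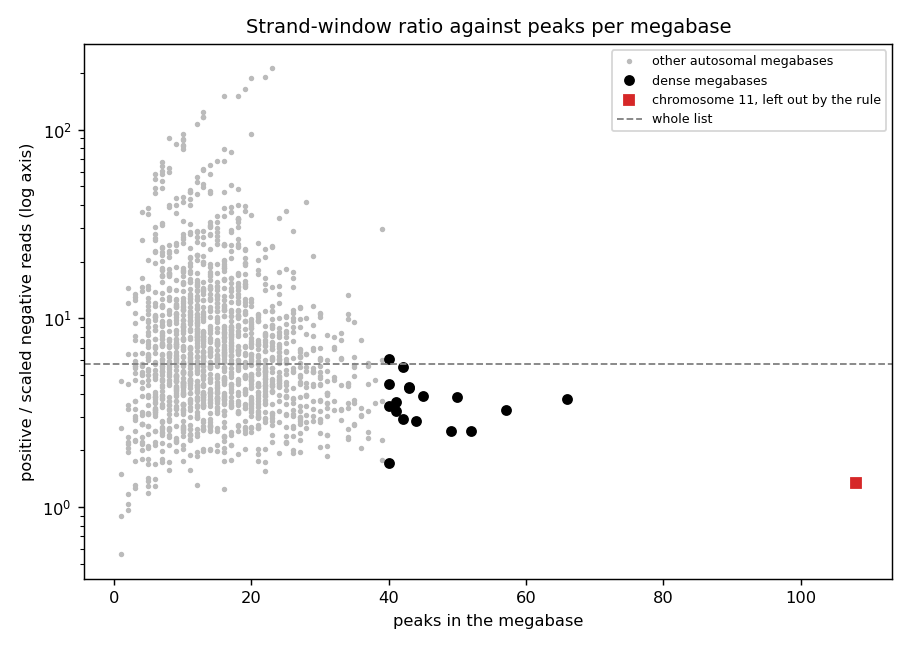
Strand-window ratio (y axis, log scale) against the number of peaks (x axis) for the 1644 autosomal megabases with at least 1 negative strand read, each point a megabase. The dense megabases (black) lie between 1.72 and 6.08, 16 of them under the dashed line at 5.72 for the whole list, and the stretch of chromosome 11 left out by rule has 108 peaks at 1.34.

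Peaks of the dense megabases were slightly richer in reads than autosomal peaks in general. Their median was 30 positive reads (interquartile range 25 to 38), against 28 (24 to 34), and they ran from 12 to 113. In megabases of 30 to 39 peaks the median was 29 (25 to 36). Of the 775, 65 held 50 or more positive reads (8.39%, 6.53 to 10.6), against 4.25% of all autosomal peaks and 6.08% in megabases of 30 to 39 peaks. Among the 1000 best-ranked peaks of the list are 37 of the 775 (4.77%), against 3.30% of autosomal peaks and 4.27% in megabases of 30 to 39 peaks. A deposited false discovery rate at or under 0.01 was given for 444 (57.3%), against 55.9% and, in megabases of 30 to 39 peaks, 58.6%. Median length was 59 bp (38 to 84), against 56 bp and, in megabases of 30 to 39 peaks, also 59 bp. The share of 29 to 31 bp was 18.6% against 17.7%, and the share of 120 bp or longer 14.8% against 10.6%. In megabases of 30 to 39 peaks these shares were 18.2% and 13.3%. Reverse reads peaked downstream of forward reads in 695 peaks (89.7%), against 92.9%, with a median distance of 51 bp against 52 bp. Reads per peak enter the calling of a peak, and their part in the density was not tested.

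**Figure D4:**
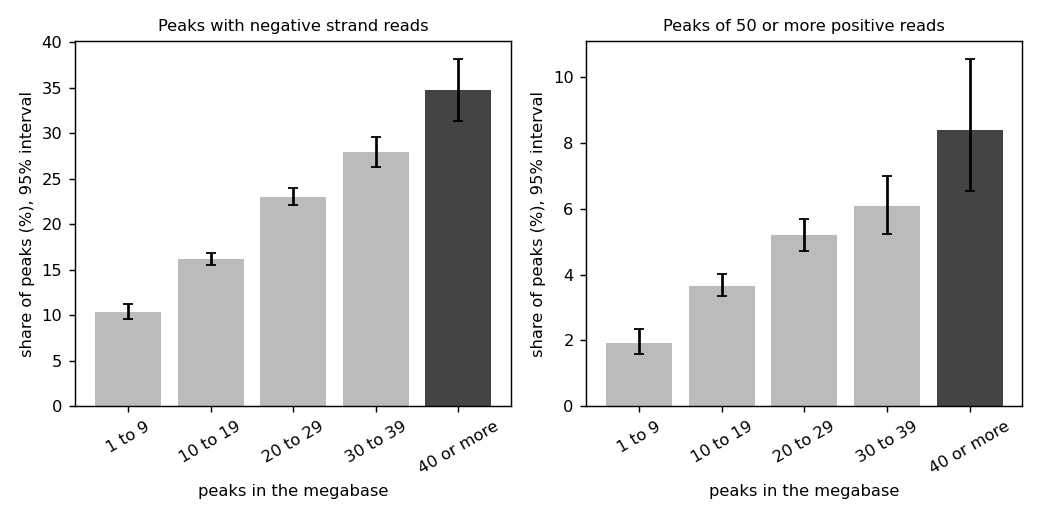
Share of peaks with negative strand reads (left) and with 50 or more positive reads (right) in autosomal megabases grouped by their number of peaks; bars are percentages of peaks and error bars exact 95% intervals. Both shares are highest in the dense megabases, at 34.7% and 8.39%, and lowest in megabases of 1 to 9 peaks, at 10.4% and 1.93%; the stretch of chromosome 11 left out by rule is in no bar.

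For orientation, genes known to lie in each megabase are named below as background from general knowledge of the mm9 map. An mm9 annotation was not used here, and peaks were not placed in genes. All 51 genes named are on the stated chromosome in the RefSeq table of GRCm38, and each of the 17 sets lies within 1 Mb there.

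On chromosome 19 the adjoining dense megabases differed most. The first, 19-4, is known for Rad9a, a DNA damage clamp subunit, Kdm2a, a histone H3 demethylase, and Pcx, pyruvate carboxylase. Its 40 peaks set 1207 positive against 211 negative strand reads, the lowest ratio of the 17 at 1.72 (1.49 to 2.003). Negative strand reads stood in 20 of the 40, and 11 had a ratio of 1 or less. It also had the shortest median length, 42 bp, and the shortest median distance between strand modes, 32.5 bp. Its best-ranked peak, from 4340436 to 4340536 at rank 1026, had 44 positive reads and no negative strand read, a bound of at least 3.44-fold. The most read-rich, from 4079478 to 4079826, had 56 positive reads and a ratio of 1.29 (0.658 to 2.75). By contrast, 6 peaks between 4309897 and 4316424 held 179 positive and 64 negative strand reads, or 0.842-fold (0.630 to 1.14).

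Next to it, 19-5 is known for Malat1 and Neat1, long noncoding RNAs of nuclear speckles and paraspeckles, Rela, the p65 subunit of NF-kappaB, and Fosl1, an AP-1 factor. It had 66 peaks, 2335 positive against 188 negative strand reads and a ratio of 3.74 (3.22 to 4.36). Its counting interval does not overlap that of 19-4, but such intervals leave out the spread between peaks. Both of its large groups held control reads. A run of 10 peaks from 5786593 to 5804345 gave 2.15 (1.66 to 2.83) and a run of 9 from 5835981 to 5851585 gave 2.50 (1.81 to 3.55). The best-ranked and most read-rich peak, from 5794075 to 5794133 at rank 103, lies in the first run, with 105 positive against 3 negative strand reads, a ratio of 10.5 (3.51 to 51.9). Rank 204, from 5835981 to 5836085, opens the second run, with 57 positive and no negative strand reads, at least 4.50-fold. With 40 peaks free of negative strand reads, 19-5 alone would pass the threshold on those peaks.

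Chromosome 11 holds both the highest ratio and the third lowest. In 11-86, known for Mir21a, a microRNA that is abundant in fibroblasts, its neighbour Vmp1, an autophagy gene, and Cltc, the clathrin heavy chain, 52 peaks held 1832 positive against 217 negative strand reads. The ratio was 2.54 (2.21 to 2.94), and 26 peaks had negative strand reads. Its run of 12 peaks from 86384389 to 86407280 is the largest group in any dense megabase, at 2.21 (1.73 to 2.86), and 9 of the 12 held negative strand reads. In that run stands the best-ranked of all 775, rank 24, from 86396062 to 86396090. It is 29 bp long with 113 positive reads, the most of any member, and its strand windows set 108 against 20, a ratio of 1.63 (1.003 to 2.77). The deposited list gives it a false discovery rate of 3e-06, a log2 fold of 6.02 and no negative whole-peak read. The peak ranked 49, from 86571197 to 86571227, had 61 positive reads and a ratio of 1.84 (0.866 to 4.51).

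The megabase 11-106 is known for Ern1, a sensor of unfolded protein, Pecam1, an endothelial adhesion molecule, and Ddx5, an RNA helicase. Its 50 peaks gave 3.82 (3.19 to 4.602). Its best-ranked peak, from 106815985 to 106816057 at rank 37, had 61 positive reads and no negative strand read, at least 4.83-fold. The most read-rich, from 106640995 to 106641224, had 86 positive and 2 negative whole-peak reads, and its strand-window ratio was 4.998 (2.06 to 15.8). Here 6 peaks lie within 3.53 kb, from 106360752 to 106364283, at 3.87 (2.45 to 6.44). The distal 11-120, known for Actg1, cytoplasmic gamma actin, P4hb, a disulfide isomerase of collagen folding, and Fasn, fatty acid synthase, had 40 peaks and the highest ratio of the 17, 6.08 (4.67 to 8.06). Only 9 of its peaks held negative strand reads, and none of its peaks reached 50 positive reads. The best-ranked and most read-rich, from 120353073 to 120353104 at rank 918, had 49 positive reads and no negative strand read, at least 3.52-fold. A run of 5 peaks from 120424107 to 120438707 had 131 positive against 2 negative strand reads, a ratio of 19.7 (5.35 to 165).

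The adjoining pair on chromosome 10 had like ratios with overlapping intervals, 3.24 (2.71 to 3.89) in 10-79 and 3.46 (2.85 to 4.22) in 10-80. The megabase 10-79 is known for Ptbp1, a splicing repressor, Stk11, the LKB1 kinase, and Cirbp, a cold-inducible RNA binding protein. Its best-ranked peak, from 79175384 to 79175490 at rank 31, held 104 positive reads, the most in this megabase. No negative strand read stood there, a bound of at least 8.34-fold. Its 5 peaks from 79615972 to 79633371 gave 4.43 (2.41 to 9.06). The most negative strand reads of any member also lie here, 33 against 27 positive at 79708402 to 79708490, a ratio of 0.246 (0.142 to 0.422). All 33 were on the forward strand. The whole-peak columns of this peak hold 27 positive and no negative reads, and its deposited log2 fold is 4.52. In 10-80, known for Dot1l, a histone H3 methyltransferase, Amh, anti-Mullerian hormone, and Gadd45b, a stress-response gene, 18 of 40 peaks held negative strand reads. The best-ranked, from 80852696 to 80852738 at rank 1161, had a ratio of 1.38 (0.597 to 3.69). The most read-rich, from 80828969 to 80829109, had 52 positive and no negative reads, at least 4.18-fold. Its run of 6 peaks from 80641816 to 80657166 gave 5.96 (3.17 to 12.6). The third, 10-127, is known for Timeless, a replication fork protein, and Stat2, an interferon signal transducer. Its 43 peaks gave 4.34 (3.55 to 5.36). Its best-ranked peak, from 127984820 to 127984881 at rank 240, had 51 positive and no negative strand reads, at least 4.01-fold. The most read-rich, from 127138859 to 127138930, had 65 positive and no negative strand reads, at least 5.16-fold, and ranks 12427.

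The 3 dense megabases of chromosome 15 had ratios of 2.94 (2.47 to 3.52) in 15-76, 2.85 (2.40 to 3.40) in 15-79 and 3.61 (2.99 to 4.39) in 15-99, with overlapping intervals. Known genes of 15-76 are Cyc1, a respiratory chain subunit, Hsf1, the heat shock factor, and Recql4, a DNA helicase. Its best-ranked peak, from 76157486 to 76157628 at rank 162 and also the most read-rich, had 80 positive reads and a strand-window ratio of 3.57 (1.66 to 9.15). In 15-79, known for Csnk1e, a clock kinase, Sun2, a nuclear envelope protein, Cbx7, a Polycomb subunit, and Pdgfb, a platelet-derived growth factor chain that acts on fibroblasts, the groups split. Its best-ranked and most read-rich peak, from 79907379 to 79907467 at rank 427, had 80 positive reads and a ratio of 3.05 (1.48 to 7.30). All 8 peaks from 79906673 to 79920280 held negative strand reads, at a ratio of 1.26 (0.983 to 1.62). None of the 5 from 79175165 to 79197877 did, with 124 positive strand reads and a bound of at least 9.97-fold. The megabase 15-99 is known for Tmbim6, an inhibitor of cell death, Aqp5, a water channel, and Racgap1, a cytokinesis factor. No group of 5 or more was found in it. Its best-ranked peak, from 99649868 to 99649896 at rank 376, had 28 positive and no negative strand reads, at least 2.14-fold. The most read-rich, from 99555098 to 99555127, had 74 positive reads and a ratio of 2.11 (1.11 to 4.40).

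Chromosome 3 has the second highest ratio, 5.54 (4.38 to 7.10), in 3-88, where 9 of 42 peaks held negative strand reads. This megabase is known for Lmna, which encodes the lamins A and C of the nuclear envelope, and Bglap, osteocalcin. Its best-ranked peak, also its most read-rich, from 88407661 to 88407716 at rank 122, had 59 positive and no negative strand reads, at least 4.67-fold. The fuller 3-95, with 57 peaks, gave 3.28 (2.80 to 3.88). It is known for Mcl1, an anti-apoptotic protein, Ctsk, a collagen-degrading protease, and Arnt, a partner of hypoxia factors. The best-ranked peak, from 95034461 to 95034489 at rank 1711, had 60 positive reads and a ratio of 3.01 (1.31 to 8.53). Its most read-rich peak, from 95470346 to 95470731, is 386 bp long with 92 positive reads but a strand-window ratio of 1.83 (1.01 to 3.59), and it ranks only 8919. It belongs to 6 peaks from 95466092 to 95482351 at 3.81 (2.36 to 6.55). Free of negative strand reads were the 5 peaks from 95622114 to 95636834, at least 11.8-fold.

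The remaining 4 are alone on their chromosomes. In 17-35, part of the histocompatibility region and known for Tnf, a cytokine gene, H2-D1, a class I antigen, and Ier3, an immediate early gene, 49 peaks gave 2.53 (2.18 to 2.95). It was the most clumped, with 40 of its 49 peaks under 10 kb from the nearest (81.6%). A run of 8 from 35949767 to 35979409 gave 2.16 (1.52 to 3.15), from negative strand reads in only 2 of the 8. In that run lies the best-ranked peak, from 35979380 to 35979409 at rank 415, with 63 positive and no negative strand reads, at least 4.99-fold. The most read-rich, from 35121361 to 35121430, had 74 positive and 2 negative whole-peak reads, and 74 against 1 in the strand windows, a ratio of 22.3 (3.88 to 892). In 18-35, known for Egr1, an immediate early factor, Ctnna1, alpha catenin, and Matr3, a nuclear matrix protein, 40 peaks gave 4.51 (3.64 to 5.67). Its 5 peaks from 35022156 to 35025850, within 3.70 kb, gave 2.11 (1.47 to 3.10). They include its best-ranked peak, from 35025040 to 35025068 at rank 225, with a strand-window ratio of 0.729 (0.419 to 1.32). That peak has 49 positive and no negative whole-peak reads and a deposited log2 fold of 5.64. They also include the most read-rich peak of 18-35, from 35024540 to 35024959, with 75 positive reads and 2.35 (1.25 to 4.89). Another 5, from 35272528 to 35281005, gave 5.68 (2.81 to 13.4).

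The isolated 6-17 is known for Cav1 and Cav2, the caveolins of fibroblast membranes, and Met, the hepatocyte growth factor receptor. Its 43 peaks gave 4.27 (3.46 to 5.33), with negative strand reads in 9. The best-ranked, from 17263474 to 17263513 at rank 626, had 44 positive against 2 negative strand reads, a ratio of 6.62 (1.73 to 56.4). A run of 7 from 17242616 to 17269057 held 204 positive against 2 negative strand reads, a ratio of 30.7 (8.39 to 255). Its most read-rich peak, from 17827064 to 17827187, went the other way in the strand windows, with 56 against 30 and 0.562 (0.355 to 0.907). It has 54 positive and no negative whole-peak reads and a deposited log2 fold of 4.86. In 8-87, known for Junb, an AP-1 factor, Calr, the chaperone calreticulin, and Nfix, a nuclear factor I gene, 45 peaks gave 3.86 (3.17 to 4.74). The best-ranked, from 87188018 to 87188076 at rank 1216, had 65 positive reads and a ratio of 1.66 (0.836 to 3.64). A run of 5 from 87549902 to 87554824 held 214 positive against 1 negative strand read, a ratio of 64.4 (11.4 to 2557). In that run stands the most read-rich, from 87552154 to 87552219, with 66 positive reads and no negative strand read, at least 5.32-fold. Another 5 from 87184094 to 87190232 gave 2.13 (1.37 to 3.46).

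Across all 17, 482 of 775 peaks had another peak under 10 kb away (62.2%), against 34.9% of all autosomal peaks and 54.9% in megabases of 30 to 39 peaks. Density alone brings peaks closer, so this is read no further. Groups of 5 or more, joined at 10 kb, number 18 and hold 118 of the peaks. That is 15.2%, against 2.41% of autosomal peaks and 5.78% in megabases of 30 to 39 peaks. Density alone also joins more peaks into groups, so this share is read no further either. The 18 groups lie in 13 of the 17 megabases, and 5 of them hold 8 or more peaks. The grouped peaks had a summed ratio of 2.67 (2.43 to 2.93) and the other members 3.54 (3.37 to 3.72). These counting intervals do not overlap, but they leave out the spread between peaks, and the difference was not tested. Of the 18 groups, 10 have an interval wholly above 2, 2 of these without any negative strand read, 6 span 2 and 2 lie wholly under it. Over all 112 autosomal groups of 5 or more, these 18 included, the shares were 58% above, 33% spanning and 8.93% under, and 15.2% held no negative strand read, so the 18 sit near that background. The 2 lowest were the 8 peaks of 15-79 and the 6 peaks of 19-4.

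Ratios of single peaks rest on few reads, so their spread is not set against that of megabases. Of the 269 members with negative strand reads, 90 had a ratio of 1 or less. That is 11.6% of all members, against 6.61% of autosomal peaks and 9.98% in megabases of 30 to 39 peaks. The median ratio of the 269 was 1.33, the same as for such peaks of the whole list. Their negative strand entries equal the highest negative window of that strand. Whether that window lies at the positive reads was not tested. In the whole-peak columns only 6 members had a negative read (0.774%, against 0.251%), and 11 of the 17 megabases had none. The strand windows thus held negative reads at many peaks where the whole-peak columns held none. Which columns better give the control reads at a peak was not tested, so a 0 in the whole-peak columns is not taken as absence. Whether the strand windows miss control reads was not tested either, and each bound assumes that they do not. A bound from no negative read is the positive strand reads over a floor of 3 negative reads, or 9.96 after scaling.

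Just on either side of the threshold, the ratios of single megabases overlapped. Summed, the dense megabases gave 3.35 (3.21 to 3.50) and those of 30 to 39 peaks 3.90 (3.81 to 3.99). The 4 megabases of 40 peaks ran from 1.72 in 19-4 to 6.08 in 11-120. The 5 of 39 peaks, just outside, ran from 1.77 (1.54 to 2.05) at 98 Mb of chromosome 15 to 29.8 (16.99 to 57.8) at 37 Mb of chromosome 19, which had 12 negative strand reads.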

How the data were processed

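The file is a single peak list of the whole series, deposited by the authors. Per the file headers it gives a count of positive and negative reads over each peak and in forward and reverse strand windows, not normalised, and the highest read number in a window, a coverage signal in reads. Per the file headers it also holds false discovery rates (q-values) and log2 folds, which are the authors' own and only describe or rank peaks. The build is mm9, per the submitters' processing notes; the aligner, peak caller and read filters, and whether the input entered the negative set, are not given in the sources used here. Reading positive as wild-type and negative as Rap1-deleted follows the series' design text. Solving the deposited log2 folds gave log2 of positive plus 1 over 3.32 times negative plus 1, with 140 of 141 solvable strand entries within 0.001. Library depth is unknown.

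Peaks were binned by midpoint. Ratios have exact conditional binomial and shares exact Clopper-Pearson 95% intervals, covering counting error only, since PCR copies are not independent molecules (Python 3.11.15, scipy 1.17.1). Both interval and binning code were tested on simulated data. No test was run. Every dense megabase is described, with its best-ranked peak, its most read-rich peak and its groups of 5 or more, and so are the 10 best-ranked members; any other peak or stretch was picked after seeing its values. The members and lists were chosen with earlier results of these data known. The planned test per library needs values per library and was not run. Gene lists, motifs and sequences need mm9 and were not used here. Alternatives were other thresholds, grids, peak subsets and columns, and leaving out each megabase or chromosome.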

Additional observations from a re-analysis of the deposited data

How the results depend on the processing

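The summed ratio of 3.35 was 3.70 with only peaks at a false discovery rate of 0.01 or less. It was 3.78 without peaks of 31 bp or shorter and 3.58 in the better-ranked 50%. At a threshold of 30 peaks it was 3.77, and on a grid shifted by 500 kb 3.54. Counting peaks within 1 kb once left 6 megabases, and the ratio over all of their peaks was 3.13. With the 3 to 4 Mb stretch of chromosome 11 included it was 2.71. In alternatives added after the data were seen it was 2.91 on forward and 3.95 on reverse windows alone. From the whole-peak columns it was 704, because these hold 11 negative reads for all 775 peaks. Which columns better give the control level was not tested. Leaving out each megabase or chromosome gave 3.28 to 3.52, the highest without 19-4. The share with negative strand reads was 29.3% at 30 peaks, 38.7% at 50 and 39.2% with that stretch of chromosome 11. Median positive reads were 33 at a false discovery rate of 0.01 or less and 31 on the shifted grid, and median length 67 bp without the shortest peaks. Membership depended on the counting: 107 megabases (3751 peaks) pass at 30 peaks, 4 (225) at 50, 23 (1021) on the shifted grid, 6 (315) with peaks within 1 kb counted once, 1 (40) on peaks without negative strand reads and 0 (0) on peaks at a false discovery rate of 0.01 or less, the last 3 because fewer peaks are counted against the same threshold. On the shifted grid 376 of the 775 peaks stayed in a dense window, and 6-17, 11-120, 15-76, 15-79 and 17-35 kept none. Megabases with an interval wholly above 2 numbered 14 to 17 in 4 alternatives. No paired analysis was possible because the columns pool the libraries.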

Other observations

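Negative reads in the dense megabases sat mostly on a single strand. Of the 269 members with negative strand reads, 224 (83.3%) had them in the forward or the reverse windows alone, against 88.8% of the 5646 such autosomal peaks, and 45 had them in both. All 314 strand entries with negative reads equal the highest negative window of that strand, as did 6272 of 6279 over all autosomal peaks. Peaks with negative reads on a single strand had a median of 7 and those with both a median of 13. Positive reads are on both strands of every listed peak, by the list's own minimum of 10.

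Of the negative strand reads in the dense megabases, 1309 were forward and 970 reverse, a forward share of 57.4% against 50.5% over all autosomal peaks. Counted by peaks the strands were closer. Negative reads stood in the forward windows alone in 116 members and in the reverse windows alone in 108. Over all autosomal peaks these numbers were 2500 and 2513. As a quotient the gap between the forward and reverse ratios of a megabase was widest in 10-79, at 2.36 (1.90 to 2.96) forward and 5.19 (3.801 to 7.26) reverse, and 11-86 went the other way, at 3.17 (2.53 to 4.04) forward and 2.17 (1.81 to 2.61) reverse. The counting intervals of the summed ratios do not carry this difference between strands.

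Among the 17, the 5 peaks with most negative strand reads held from 39.9% of such reads in 19-5, where 26 peaks had any, to 85.1% in 3-88, where 9 had. The share depends on that number of peaks.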
